A study of Mus musculus with 6 samples.

Results

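The chemokine and sphingosine 1-phosphate (S1P) receptors of splenic NK cells were described from mRNA-seq of WT and cKO mice. They were taken from a fixed list of names: Cx3cr1, Cxcr3, Cxcr4, Cxcr6, Ccr2, Ccr7, S1pr1, S1pr4 and S1pr5, which are 9 of the 14490 genes with values. WT mice carried Mettl3fl/fl without Cre, and cKO mice were Ncr1Cre-Mettl3fl/fl, so that Cre made from the Ncr1 locus deletes Mettl3, the catalytic subunit of the complex that writes N6-methyladenosine (m6A) on mRNA, in cells that have switched on Ncr1. All mice had the C57BL/6 background and were young adults, the NK cells were purified from spleen by flow cytometry, and each genotype had 3 samples. The sources used here do not say how many mice went into a sample. Every cKO sample also carried the Ncr1Cre allele that WT lacked, and its effect cannot be told apart from that of losing Mettl3.

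Chemokine and S1P receptors are G protein-coupled receptors of the cell surface that steer where lymphocytes go. S1P is abundant in blood and lymph and scarce in tissue, and lymphocytes follow this gradient out of lymphoid organs through S1PR1, whereas NK cells also use S1PR5 to leave bone marrow and lymph nodes. Chemokine receptors act in the other direction as well, since CXCR4 holds cells in bone marrow, CCR7 brings them to lymph nodes, and CXCR3, CCR2 and CX3CR1 are best known for recruitment to inflamed tissue.

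The values were normalized counts, that is, read counts divided by the size factor of the sample. Between 55965515 and 71464042 reads per sample fell on the listed genes. Mettl3 had 1303, 1258 and 1192 normalized counts in WT and 297, 299 and 405 in cKO, so the deleted gene followed the labels; 933 of its exon bases overlap Tox4 on the opposite strand. NK-cell genes were abundant in both genotypes (Ncr1, the gene of NKp46, had 22394 ± 286 normalized counts in WT and 16918 ± 230.4 in cKO, SD, n = 3).

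Because the genotypes differ in the m6A writer, the letters GGACT, a form of the sequence context that METTL3 methylates, were located in the GENCODE transcript of each receptor (GRCm38). No m6A was measured in these samples, and a match is a description of letters only. The median over 11850 transcripts of listed genes was 1.05 matches per kb, and 91.4% of those transcripts had at least 1 match. Above that median were 5 of the 9 receptors, Cxcr6 with 4 matches (2.11 per kb), Ccr7 with 3 (1.52), S1pr4 with 3 (1.26), Cxcr3 with 2 (1.155) and Cx3cr1 with 5 (1.11). Below it were Ccr2 with 5 matches (0.873 per kb), Cxcr4 with 1 (0.554), S1pr5 with 1 (0.4) and S1pr1 with 1 (0.328). A match after the stop codon was present in 7 of the 9 receptor transcripts and in 59.3% of all. Only the transcript strand was searched. The match nearest the stop codon is printed for each receptor with its flanks, 5′ to 3′ on the transcript, GGACT in capitals, so that the context can be compared between receptors that rose, fell or did not pass the test.
S1pr1: tccttggtcaGGACTcgaagccgcc
S1pr4: gacagttttcGGACTtctcggtcac
S1pr5: aacaaaggagGGACTctcctggatt
Cxcr3: ttgtaattctGGACTggaactgtag
Cx3cr1: ttgcccttctGGACTcactacctca
Ccr2: tttctcttctGGACTccatacaata
Cxcr4: tctgtgtgtaGGACTgtagaactgt
Ccr7: tcccctgcccGGACTacaaggacct
Cxcr6: cagcaatatgGGACTgaaaacaggc
The match shown lay in the coding sequence of S1pr1, S1pr4, Cx3cr1 and Ccr2, and after the stop codon in the others, at 7 bases in Cxcr3 and 18 bases in Ccr7.

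The data showed more mRNA in cKO than in WT NK cells for 7 of the 9 receptors, S1pr1, S1pr4, S1pr5, Cxcr3, Cx3cr1, Ccr2 and Cxcr4, less for Ccr7, and no call for Cxcr6. A gene was called when its adjusted p was under 0.05 in limma, fitted over all 14490 genes on log2(normalized count + 1). By that rule 36.6% of all genes were called, 17.8% higher and 18.8% lower in cKO, so a call by itself was common in this comparison. With the samples scaled to equal totals the split over all genes was 3487 higher and 2016 lower, in place of 2576 and 2731. The 3 cKO samples and the 3 WT samples did not overlap for 8 of the 9 receptors, against 45.7% of all genes. The median log2 fold change of the receptors was 0.49, and that of all genes was 0.0014. S1pr1 was the receptor above 2-fold, and S1pr1, Cxcr3 and S1pr4 were above 1.5-fold, a rise that 5.09% of all genes reached. For each of the 8 receptors without overlap the exact permutation test (two-sided) gave p = 0.1, the smallest that 3 samples against 3 allow. In these bulk samples a change in the share of NK cells that express a receptor and a change in mRNA per cell cannot be told apart.

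**Figure D1:**
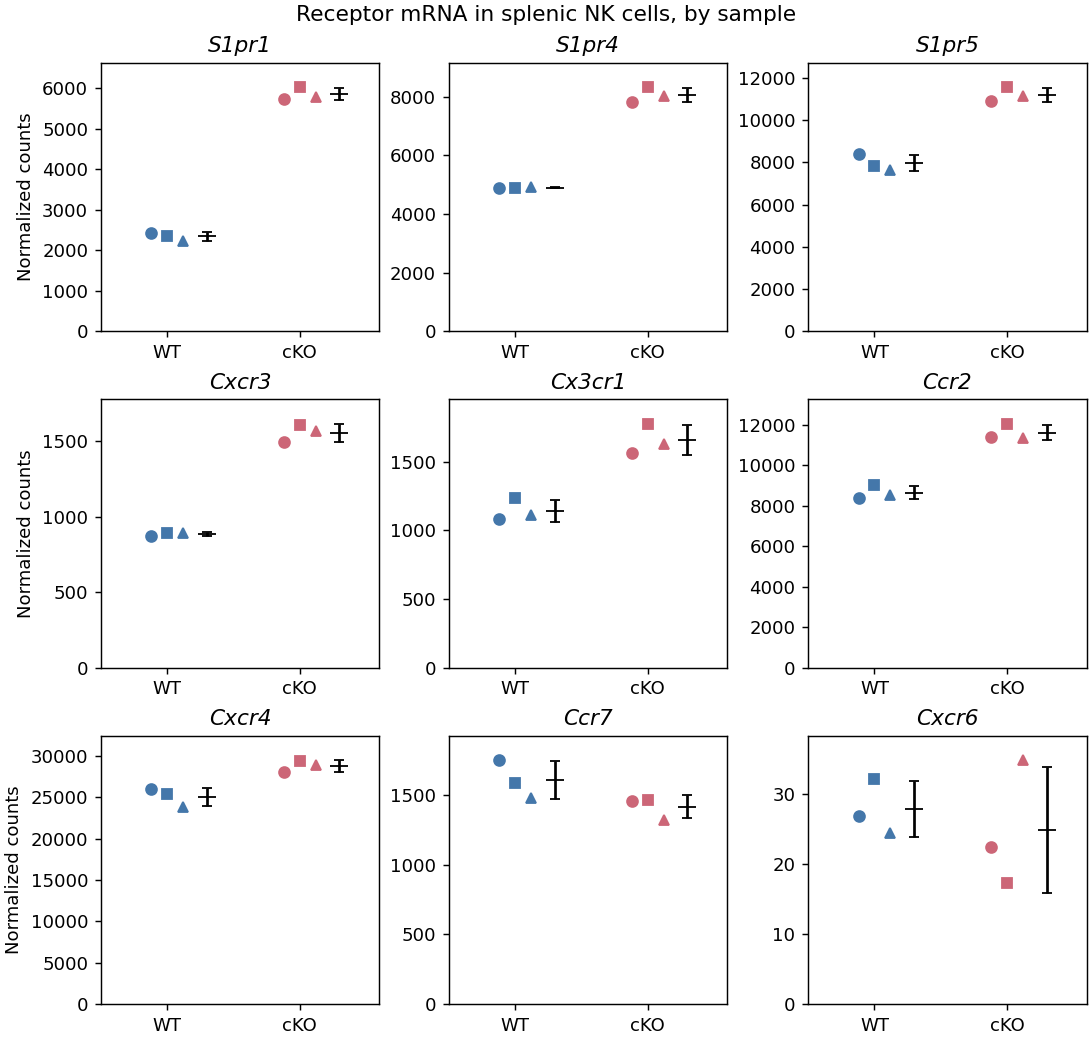
Normalized counts (vertical axes, from 0) of each receptor in the 3 WT (blue) and 3 cKO (red) samples, circle, square and triangle for samples 1, 2 and 3; the black bars are the mean ± SD. The cKO points lie above all WT points in 7 panels, below them for Ccr7, and overlap them for Cxcr6.

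S1pr1, S1pr4 and S1pr5 all rose, and S1pr1 rose the most of the 9 receptors. S1pr1, the receptor that lymphocytes use to exit into blood and lymph (GRCm38 chr3:115710433-115715072, minus strand), was read at 2437, 2362 and 2228 normalized counts in the WT samples, numbered 1 to 3, against 5736, 6020.3 and 5792 in the cKO samples in the same order. Every cKO sample had more than 2-fold the S1pr1 mRNA of any WT sample. The means were 2342 ± 106 (SD, n = 3) and 5849.7 ± 150.4 (SD, n = 3), a fold change of 2.50 with a 95% confidence interval of 2.35 to 2.66 (log2 fold change 1.32, SE 0.0431, limma adjusted p = 3.24e-18). Among the 11055 genes with a mean of at least 100 normalized counts, this was the 13th largest rise, and 2 genes had a lower p.

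S1pr4, a receptor of haematopoietic cells (chr10:81497747-81500132, minus strand), measured 4869, 4891 and 4914 normalized counts in WT and 7829, 8311 and 8027 in cKO. Its WT samples lay within a narrow range far below the lowest cKO sample. The means were 4891 ± 22.4 and 8056 ± 242 (SD, n = 3 each), a fold change of 1.65 (log2 fold change 0.72, SE 0.0362, limma adjusted p = 1.46e-14). S1pr5, the S1P receptor most closely tied to the exit of NK cells from bone marrow and lymph nodes (chr9:21242912-21248443, minus strand), measured 8373, 7851 and 7649 normalized counts in WT and 10894, 11551 and 11161 in cKO. The cKO samples were again all higher, by a smaller step. The means were 7958 ± 374 and 11202 ± 330.2 (SD, n = 3 each), a fold change of 1.41 (log2 fold change 0.49, SE 0.0369, limma adjusted p = 4.11e-11). Of its exon bases 51 overlap an unconfirmed transcript on the opposite strand, and whether the counting used strand is not given in the sources used here.

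The promoters of S1pr4 and S1pr5 are shown as examples that hold the letters CACCC, the core of the sites bound by Kruppel-like factors such as KLF2, and were picked for that. S1pr1 and Ccr7 had no entry in the promoter table. The sequences are the 250 bases before the RefSeq start (GRCm38.p6), 5′ to 3′ on the gene's strand, with CACCC or its reverse complement GGGTG in capitals; they lie at chr10:81500138-81500387 for S1pr4 and chr9:21248444-21248693 for S1pr5, both on the minus strand.
S1pr4: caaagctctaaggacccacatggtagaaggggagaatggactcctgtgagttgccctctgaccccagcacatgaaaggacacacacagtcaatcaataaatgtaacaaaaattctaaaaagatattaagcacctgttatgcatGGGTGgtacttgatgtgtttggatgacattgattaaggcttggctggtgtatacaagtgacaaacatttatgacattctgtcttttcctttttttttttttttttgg
S1pr5: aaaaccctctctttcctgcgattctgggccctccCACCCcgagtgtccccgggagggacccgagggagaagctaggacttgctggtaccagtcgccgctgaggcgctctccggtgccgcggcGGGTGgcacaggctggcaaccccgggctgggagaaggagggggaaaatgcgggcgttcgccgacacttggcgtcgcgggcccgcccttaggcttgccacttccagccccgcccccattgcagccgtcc
S1pr5 had 2 matches and S1pr4, Cx3cr1 and Cxcr4 had 1 each, while Cxcr3 and Ccr2, which also rose, and Cxcr6 had 0. Matches on either strand were present in 4 of the 7 receptors with a promoter in the table, and in 52.0% of 32851 promoters of this length, 21.1% of which had 2 or more.

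Among the chemokine receptors, those for inflammatory ligands rose. Cxcr3, which binds CXCL9, CXCL10 and CXCL11 (chrX:101731535-101734269, minus strand), measured 869.9, 892 and 893 normalized counts in WT and 1492, 1608 and 1564 in cKO. The WT samples were nearly equal, and the lowest cKO sample lay well above them. The means were 885 ± 13.1 and 1555 ± 59.0 (SD, n = 3 each), a fold change of 1.75 (log2 fold change 0.81, SE 0.0611, limma adjusted p = 4.84e-11), which made Cxcr3 the chemokine receptor of the 9 with the largest rise. Cx3cr1, the fractalkine receptor, which increases with NK maturation (chr9:119901616-120069879, minus strand), measured 1080.4, 1233 and 1109 normalized counts in WT and 1564, 1777 and 1631 in cKO. Its samples were more scattered within each genotype but did not overlap. The means were 1141 ± 80.9 and 1657 ± 109 (SD, n = 3 each), a fold change of 1.45 (log2 fold change 0.54, SE 0.0640, limma adjusted p = 1.82e-07). An antisense gene, Gm33858, overlaps 78 of its exon bases, and reads there cannot be told apart without strand.

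Ccr2, the CCL2 receptor, needed by monocytes and some NK cells to reach inflamed tissue (chr9:124101950-124113557, plus strand), measured 8404, 9036 and 8526 normalized counts in WT and 11422, 12052 and 11365 in cKO. The genotypes were apart by several times the spread within them. The means were 8655 ± 335 and 11613 ± 382 (SD, n = 3 each), a fold change of 1.34 (log2 fold change 0.42, SE 0.0359, limma adjusted p = 4.48e-10). Cxcr4, the CXCL12 receptor that retains cells in bone marrow (chr1:128588199-128592293, minus strand), measured 26024, 25362 and 23870.4 normalized counts in WT and 28052, 29460.1 and 28880.1 in cKO. The highest WT and the lowest cKO sample were close. The means were 25085 ± 1103 and 28797 ± 708 (SD, n = 3 each), a fold change of 1.15 (log2 fold change 0.20, SE 0.0331, limma adjusted p = 2.57e-05), the smallest rise among the called receptors.

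Ccr7, the receptor for the lymph node chemokines CCL19 and CCL21 (chr11:99144196-99155077, minus strand), was the receptor that was lower in cKO. It had 1748, 1585 and 1478 normalized counts in WT and 1457, 1465 and 1319 in cKO. The lowest WT sample and the highest cKO sample were almost equal. The means were 1604 ± 136 and 1414 ± 82.2 (SD, n = 3 each), a log2 fold change of −0.18 (95% confidence interval −0.31 to −0.05, SE 0.0635, limma adjusted p = 0.0270). This call was lost with the samples scaled to equal totals (limma adjusted p = 0.104), with limma-voom (0.112), without WT sample 1 (0.195) and without cKO sample 3 (0.152), with a value below 0 in each.

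Cxcr6, the CXCL16 receptor that marks liver-resident cells (chr9:123806475-123811760, plus strand), was barely detected. It had 26.8, 32.1 and 24.4 normalized counts in WT and 22.4, 17.3 and 34.8 in cKO, from 19 to 38 reads a sample. The genotypes overlapped, and counting alone gives a coefficient of variation of 19.5% at this depth. The log2 fold change of −0.21 had a 95% confidence interval of −1.01 to 0.60 (limma adjusted p = 0.725, exact permutation test p = 0.5), which does not leave out a change of the size seen in S1pr5 or Ccr2, and without cKO sample 2 the value was 0.015.

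**Figure D2:**
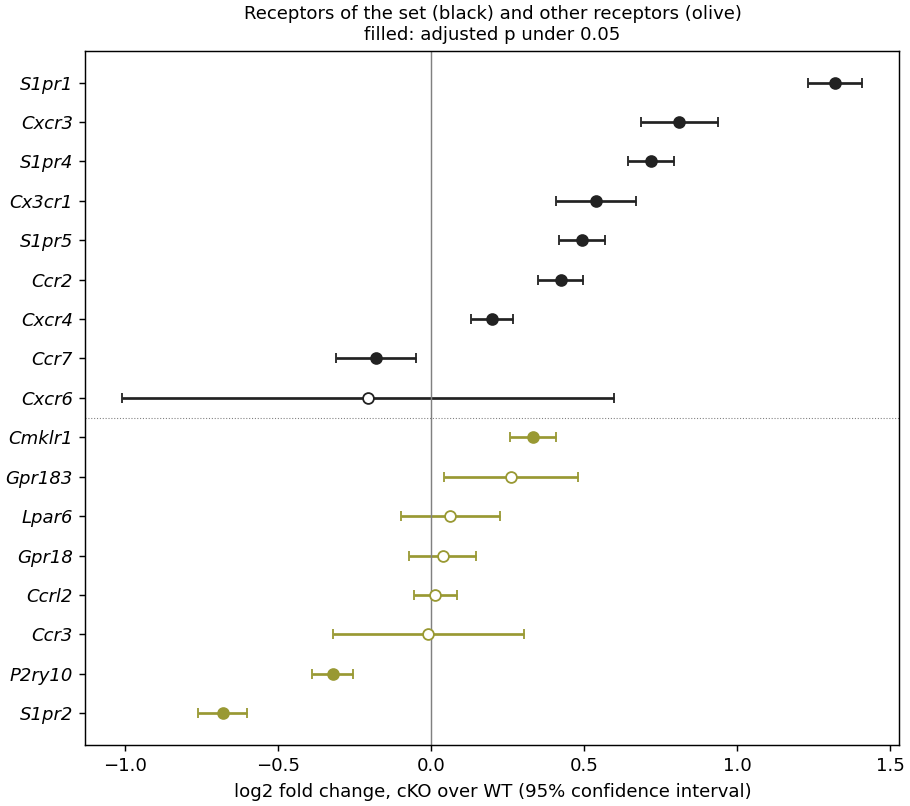
Log2 fold change of cKO over WT (horizontal axis) with its 95% confidence interval from limma for the 9 receptors (black) and for 8 other chemotactic receptors with a mean of at least 100 normalized counts (olive); filled points have an adjusted p under 0.05. S1pr1 at 1.32 and S1pr2 at −0.68 mark the ends of the range.

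Levels of different receptors were compared as normalized counts per kb of exon. In WT the order of mean levels was Cxcr4 (13875 per kb), S1pr5 (3183), S1pr4 (2049.9), Ccr2 (1280.4), Ccr7 (811), S1pr1 (769), Cxcr3 (511), Cx3cr1 (253) and Cxcr6 (14.4). The samples of neighbours in this order did not overlap, except Ccr7 and S1pr1, whose WT levels did not differ beyond their spread. In cKO the level of S1pr1 was 1920.4 per kb, above Ccr2 (1718), Cxcr3 (898) and Ccr7 (715), and below S1pr4 (3376), S1pr5 (4481) and Cxcr4 (15928). S1pr1 thereby moved from place 6 to place 4 and Ccr7 from place 5 to place 7, and no neighbours overlapped in cKO. The step of S1pr1 over Ccr2 was small (ratio of means 1.12) and depends on the length taken. All exons of Ccr2 cover 6.76 kb, and its transcript searched for GGACT has 5.73 kb. Dividing by the shorter length would put Ccr2 above S1pr1 in cKO. Cx3cr1 (368 per kb) and Cxcr6 (12.8 per kb) kept the last places.

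**Figure D3:**
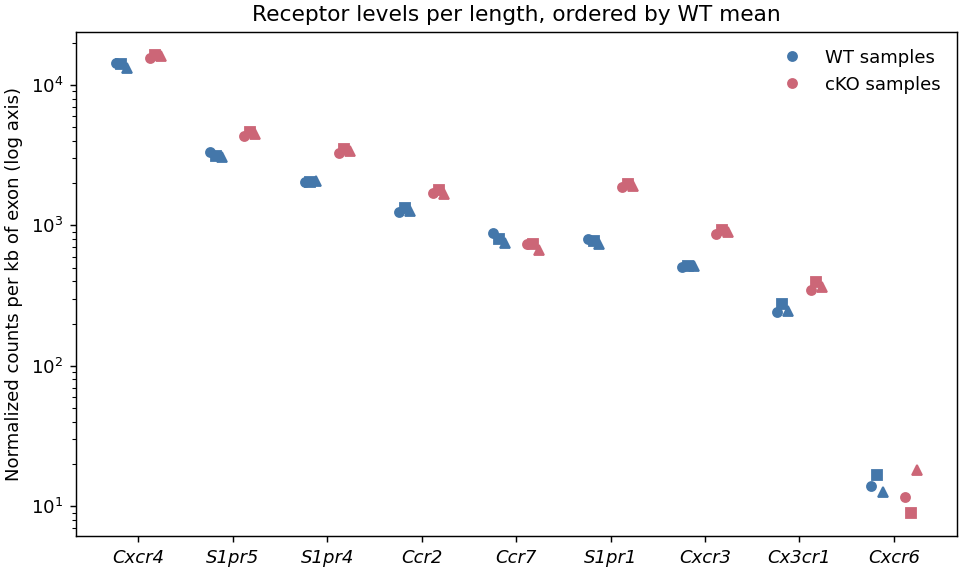
Normalized counts per kb of exon (vertical log axis) of the 9 receptors in each WT (blue) and cKO (red) sample, ordered by the WT mean. Cxcr4 is the highest in both genotypes. In cKO S1pr1 passes Ccr7, and it also passes Ccr2 when the length of all Ccr2 exons is used.

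Ratios of receptors within a sample do not depend on how samples were scaled. The ratio of S1pr5 to S1pr1 normalized counts was 3.44, 3.32 and 3.43 in WT and 1.90, 1.92 and 1.93 in cKO, so that the balance between the receptors for S1P shifted towards S1pr1 in every cKO sample. The ratio of Cxcr4, which retains cells, to S1pr1, which lets them leave, was 10.7 ± 0.0305 in WT and 4.92 ± 0.0544 in cKO (SD, n = 3 each). The ratio of Cx3cr1 to Cxcr3 was 1.24, 1.38 and 1.24 in WT and 1.05, 1.10 and 1.04 in cKO. None of the 3 ratios overlapped between genotypes, and no test was run on them.

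**Figure D4:**
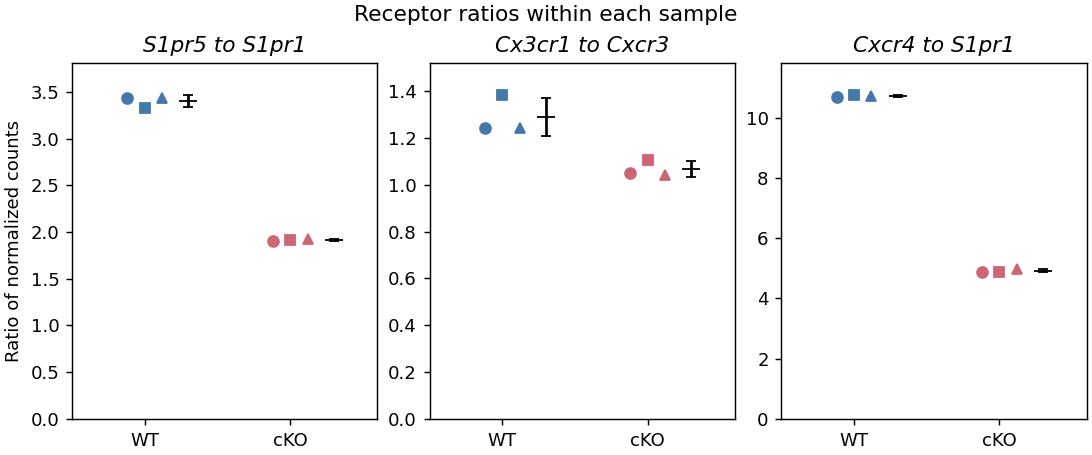
Ratios of normalized counts (vertical axes, from 0) in each WT (blue) and cKO (red) sample, with the mean ± SD in black. The ratio of S1pr5 to S1pr1 falls from 3.40 ± 0.0636 to 1.91 ± 0.0143, and that of Cxcr4 to S1pr1 from 10.7 to 4.92.

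Other receptors for chemokines, S1P and related guidance cues did not share the rise. Of 26 on the list, 15 had values, and 2 were higher, 3 lower and 10 not called (36.6% of all genes were called), with a median log2 fold change of 0.04. S1pr2, which couples to G12 and G13 and restrains migration where S1pr1 promotes it, had 5434, 5400.0 and 5239.6 normalized counts in WT and 3337, 3400 and 3295 in cKO. It moved opposite to S1pr1, S1pr4 and S1pr5 in all samples, with a log2 fold change of −0.68 (SE 0.0391, limma adjusted p = 2.09e-13). Cmklr1, the chemerin receptor, rose by 0.33 on the log2 scale, and P2ry10, a lysophospholipid receptor, fell by 0.32. Xcr1 was the other called rise, at 11.2 against 27.8 normalized counts, which is under the level set for naming, and it was named after its values were seen. S1pr3, Ccr1 and Cxcr2 were among the 11 without values here.

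Genes of chemokine ligands were split. Of 33 chemokine genes 13 had values, 3 higher, 3 lower and 7 not called (36.6% of all genes were called). Ccl4 rose from 67646 ± 2066 to 79805 ± 2871 normalized counts (SD, n = 3 each, log2 fold change 0.24, limma adjusted p = 1.19e-06), and Cxcl2 had a log2 fold change of 0.25, a call lost without WT sample 3 or without cKO sample 3. Ccl5 fell by 0.31 on the log2 scale and Ccl9 by 0.80.

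Of 13 genes of S1P handling, 11 had values. Of these 2 were called, both higher, beside 36.6% of all genes, although 5 were called with the samples scaled to equal totals. Sgpp1, a phosphatase that removes S1P, rose by 0.21 on the log2 scale (limma adjusted p = 0.00321), and Mfsd2b, an S1P exporter of blood cells, rose by 0.64 at 93.0 against 144 normalized counts, a call lost without WT sample 3 or cKO sample 1. Sgpl1, the lyase that degrades S1P, had 6204 ± 6.84 and 6121 ± 41.8 normalized counts (log2 fold change −0.02, limma adjusted p = 0.710, and 0.03 with equal totals). Spns2, the exporter of endothelium, stood at −0.26 on the log2 scale (limma adjusted p = 0.402), and Sphk1 had no value here.

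Of 8 genes with values that desensitise or internalise the receptors, 3 were called, beside 36.6% of all genes. The 3 were lower in cKO, and 0 were called higher in limma (1 at an unadjusted p under 0.05). With equal totals 1 was higher and 1 lower. The median log2 fold change of the 8 genes was −0.08. Grk5, a receptor kinase, fell by 0.26 on the log2 scale (limma adjusted p = 5.03e-05). Cd69, whose product binds S1PR1 and takes it off the surface, had 69199.7, 67984 and 65508 normalized counts in WT and 62824, 64704 and 59406 in cKO. No cKO sample reached the lowest WT sample, but the margin was small (log2 fold change −0.12, limma adjusted p = 0.00562, and 0.0690 with equal totals). Grk2, the kinase that acts on S1PR1 in blood, stood at −0.06 on the log2 scale with a limma adjusted p of 0.130.

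G protein genes were mixed, with 3 higher, 5 lower and 11 not called among 19 with values, and 4 higher and 4 lower with equal totals. Over all genes 36.6% were called. Gnai2, the main Gi subunit behind chemotaxis of lymphocytes, had 37234 ± 1084 normalized counts in WT and 33056 ± 585 in cKO (SD, n = 3 each), which is −0.17 on the log2 scale (limma adjusted p = 5.93e-05), and Gnai3 fell by 0.27. Gng5 fell by 0.24. Gna15 rose by 0.36, and Gna13, which signals below S1PR2, had a log2 fold change of 0.09 that lost its call without either of 2 WT or either of 2 cKO samples.

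Of 31 genes that carry the signal to the cytoskeleton, all had values, 9 were higher, 13 lower and 9 not called. Over all genes 17.8% were higher and 18.8% lower. Pik3r6, a regulatory subunit of the phosphoinositide 3-kinase that G protein-coupled receptors activate, rose from 62.5 ± 17.0 to 161 ± 18.0 normalized counts (log2 fold change 1.37, limma adjusted p = 1.26e-05). The other regulatory subunit of that kinase, Pik3r5 (20697 ± 344 to 29179 ± 483, log2 fold change 0.50), and its catalytic subunit Pik3cg (0.22) rose as well, and these were named after their values were seen. Tiam1, an activator of RAC, had a log2 fold change of 0.60, lost without WT sample 3. Ezr, which links membrane proteins to actin, fell by 0.40 on the log2 scale (limma adjusted p = 7.04e-11).

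Transcription factors known to act on these receptors were next examined. Of 13, 7 were higher, 1 lower and 5 not called, beside 17.8% higher and 18.8% lower over all genes. Their median log2 fold change was 0.11. Klf2, which drives S1pr1 transcription in lymphocytes, had 142524, 145823 and 146199 normalized counts in WT and 165027, 171015 and 164351 in cKO. All cKO samples were higher, by a fold change of 1.15 (log2 fold change 0.20, limma adjusted p = 4.45e-06). Foxo1, which acts on Klf2 and Ccr7 in T cells, rose by 0.24, and Tbx21, the gene of T-bet, which is needed for S1pr5 in NK cells, rose by 0.23. The study, however, measured less T-bet protein in splenic NK cells of cKO mice by flow cytometry, opposite in direction to this mRNA. Gfi1 rose by 0.30 and Prdm1, the gene of BLIMP-1, by 0.27. Zeb2, which acts with T-bet in NK maturation, stood at −0.02 on the log2 scale (limma adjusted p = 0.617) and Eomes at −0.01 (limma adjusted p = 0.828), and both were above 0 with equal totals. Nr4a1 had a log2 fold change of −0.08 that lost its call in 7 of 12 alternatives.

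S1pr5 and Cx3cr1 are known to be higher, and Cxcr3 and Ccr7 lower, in mature than in immature NK cells, and other genes of these stages were compared. Of 9 genes of immature, CD27-bearing cells, 3 were higher, 2 lower and 4 not called, beside calls in 36.6% of all genes. Ltb rose by 0.64 and Il7r by 0.52 on the log2 scale, whereas Kit fell by 0.53 and Cd7 by 0.29. Of 6 genes of mature, CD11b-bearing cells, 1 was higher, Prdm1, and 2 were lower. Ly6c2 fell from 7354 ± 145 to 2905 ± 108 normalized counts (log2 fold change −1.34, limma adjusted p = 9.18e-19) and Klrg1 by 0.55. Cd27 (3296 ± 12.6 and 3367 ± 199 normalized counts, limma adjusted p = 0.660) was not called. Nor was Itgam, the gene of CD11b (51065 ± 264 and 51176 ± 668, limma adjusted p = 0.948). The stages are defined by both proteins on the surface of each cell, which mean mRNA does not measure. By flow cytometry, the study found CD11b-positive, CD27-negative NK cells to be less frequent in cKO spleen, and KLRG1 to be lower in peripheral organs.

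**Figure D5:**
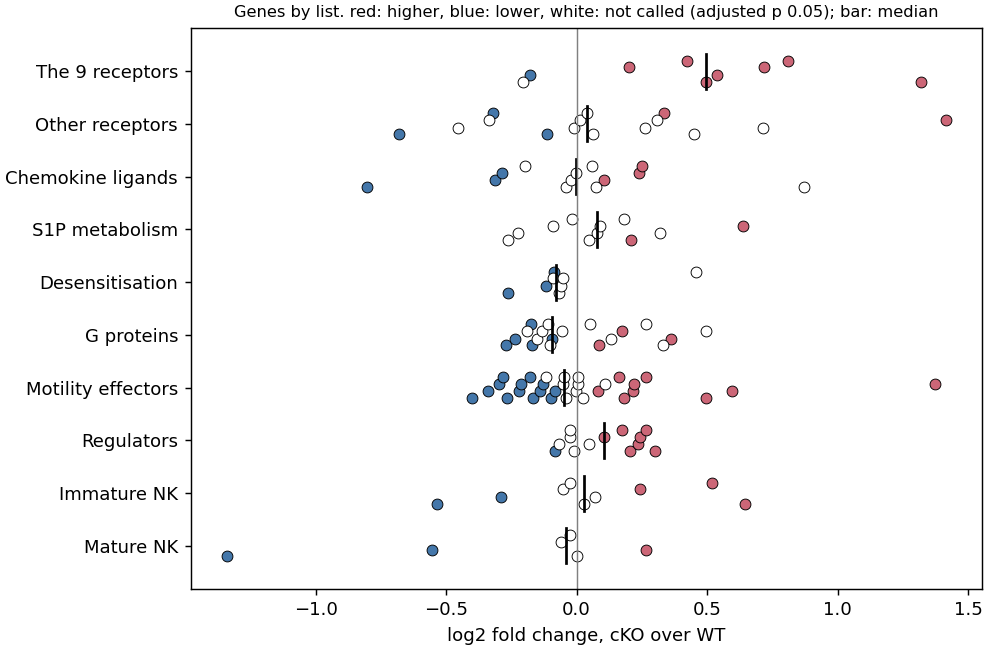
Log2 fold change of cKO over WT (horizontal axis) of every gene with values in the 9 receptors and in 9 lists of related genes; red points were called higher, blue lower and white not called (limma adjusted p of 0.05), and the black bar is the median. The median of the receptors is 0.49, and the other medians lie between −0.09 and 0.11.

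Markers of NK cells and of other cells were compared as well, beside calls in 36.6% of all genes. The study's methods sort NK cells on NKp46, a gate that T, B and most myeloid cells would not enter, but do not give the gate used for these libraries. Of 12 NK-cell markers 2 were higher and 7 lower, led by Ncr1 (log2 fold change −0.40), the locus that carries Cre in cKO, and Nkg7 (−0.34), while Tbx21 (0.23) and Il2rb (0.14) were higher. Of 10 B-cell markers, 9 had values and 7 were higher in cKO, with Cd79a at 201 ± 32.4 against 334 ± 56.7 normalized counts. B cells express S1pr1, Cxcr4 and Ccr7. The summed B-cell markers ran from 803 to 899.8 normalized counts in WT and from 1243 to 1319 in cKO, a rise of 431 in the mean, beside a rise of 3508 in S1pr1, and the part of B-cell RNA in the rise of S1pr1 was not tested. Without cKO sample 1, 3 of the B-cell markers were called.

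T-cell markers, of which 11 of 12 had values, were 1 higher and 3 lower, and with equal totals 3 higher and 2 lower. Their sum ran from 16875 to 18274 normalized counts in WT and from 12902 to 13618 in cKO, and Cd28 alone (11867 ± 562 against 7910.0 ± 358) carried most of the difference, since its mean fell by 3957 and the mean sum fell by 4041. The other 10 markers summed to 5383 to 5760.5 in WT and 5301 to 5591 in cKO, which overlapped. Cd3g was lower by 0.75 on the log2 scale, Lef1 had a log2 fold change of 0.14, a call lost without WT sample 3 or cKO sample 2, Trac (0.17, limma adjusted p = 0.0750) and Cd3e (0.15, limma adjusted p = 0.548) were not called, both named after their values were seen, and Cd8b1 had no value. T cells are a source of Ccr7 and S1pr1 mRNA, and their part in the fall of Ccr7 was not tested. Myeloid markers, which matter for Ccr2 and Cx3cr1, were 4 higher and 1 lower of 9 with values, and their sum ran from 46933 to 49738 in WT and from 49714 to 51229.7 in cKO. Itgax, which mouse NK cells also express, made up most of that sum (40864 normalized counts in WT and 43194 in cKO) and 2329.6 of its rise of 2348, and it was named after its values were seen. The other 8 summed to 6863 to 7367 in WT and 6775 to 7459.8 in cKO, which overlapped. Lyz2 fell by 0.40, Cd14 had a log2 fold change of 0.46, a call lost without WT sample 2 (limma adjusted p = 0.171), cKO sample 1 (0.118) or cKO sample 3 (0.101), and S100a8, S100a9, Mpo, Flt3 and Siglech had no values. Their part in the rise of Ccr2 and Cx3cr1 was not tested. ILC1 markers had 1 call in 8, Il7r, with sums of 2356 to 2516 in WT and 2719 to 2817 in cKO, and of 5 erythroid markers with values 0 were called in limma (1 had an unadjusted p under 0.05, lower in cKO), with sums of 811 to 869.9 in WT and 684 to 832 in cKO.

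The genes whose values most resembled those of S1pr1 over the 6 samples were Gm20743 (Pearson r = 0.999 of log2 values), Rasa3 and Enc1. Over all 14490 genes, whatever their level, 145 had r over 0.99, S1pr1 itself included. Those nearest Ccr7 were Chst11 (r = 0.998), Vwa5a (0.992) and Hsd17b11 (0.986). The 6 samples share 2 genotypes and 6 libraries, and the values are descriptions of likeness only.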

How the data were processed

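mRNA-seq of splenic NK cells was analysed in 3 WT and 3 cKO samples, grouped by the genotype in the sample labels. Per the submitters' processing notes, the authors used HISAT2 (versions 2.0.5 and 2.0 are named), featureCounts 1.5.0-p3 and DESeq2 1.16.1 on GRCm38, and the annotation and strand setting of the counting are not given in the sources used here. The deposited sample columns are a signal, the gene counts that the authors divided by a size factor per sample. The table also holds the authors' own comparison, namely a mean over samples, a log2 fold change with its standard error, a Wald statistic as a score, a p-value and an adjusted p-value, and none of these columns was used. In every sample 100% of low values were whole multiples of the worth of a read (tolerance 0.05 read), from which 55965515 to 71464042 reads on listed genes were derived. The depth of the whole libraries is not given in the sources used here.

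Values were taken as log2(value + 1), which understates the change of genes with low counts. A minimum value of 1 in any 3 samples was asked of a gene and was met by all 14490. The genotype effect was estimated by two-sided tests in limma 3.58.1 (R 4.3.3), allowing the variance to follow the mean level, and p-values were adjusted over those 14490 genes (Benjamini-Hochberg); confidence intervals are at the 95% level. The steps were tested on simulated data. Exact permutation tests over the 20 assignments of samples and the ratios used scipy 1.17.1 and pandas 2.3.3. Gene names were matched to GENCODE M21 (GRCm38), with 97.1% of rows found. Nothing says that samples of a genotype came from separate animals, so p-values measure the spread between these samples, and intervals cover no other error.

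The 9 receptors, the gene lists and the tests were chosen with earlier results of these data known. Named were the receptors, Mettl3, a fixed set of genes tied to them, and in each list the 2 largest rises and 2 largest falls among called genes (adjusted p under 0.05) whose genotypes did not overlap and whose mean reached 100 normalized counts. Some genes that this rule names are not reported here. The 3 genes most like S1pr1 and Ccr7 were those with the highest Pearson r. Other settings were tried in turn, namely leaving each sample out, a block on replicate number, limma-voom, scaling to equal totals, a smaller pseudocount (0.1), dropping the minimum, and raising it to 1 CPM.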

Additional observations from a re-analysis of the deposited data

How the results depend on the processing

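S1pr1, S1pr4, S1pr5, Cxcr3, Cx3cr1, Ccr2 and Cxcr4 kept their direction and their call in all 12 alternatives, and the log2 fold change of S1pr1 lay between 1.29 and 1.37. Dropping the minimum, which is among the 12, could not change any value, because all 14490 genes met it. Count tests on reads derived from the values, by edgeR and DESeq2, had been planned and were not run. Cxcr6 was left out by the filter of 1 CPM, so it has a value in 11 alternatives. Depth limits Cxcr6, at 19 to 38 reads a sample, and the other receptors had at least 750 (Cxcr3).

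With the samples scaled to equal totals, which put the median over all genes at 0.05 on the log2 scale, and with limma-voom, 0 receptors were called lower by limma in place of 1 (Ccr7; at an unadjusted p under 0.05, 1 and 0), and the genes of S1P handling called were 5 and 4 in place of 2. The ILC1 markers called were 2 in place of 1 under both and under the 1 CPM filter, which also gave 1 erythroid marker. With a sample left out, the receptors called lower ranged from 0 to 1, genes of S1P handling from 1 to 2, of desensitisation from 1 to 3, ILC1 markers from 1 to 2, B-cell markers from 3 to 7, T-cell markers from 2 to 4, myeloid markers from 2 to 5 and erythroid markers from 0 to 1.

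Log2 fold changes near 0 changed sign in some alternatives, none of them called. With a sample left out, Cxcr6 ranged from −0.47 to 0.015, Cd27 from −0.017 to 0.066, Itgam from −0.0071 to 0.011, Eomes from −0.034 to 0.0030 and Zeb2 from −0.044 to 0.0027. With equal totals and with limma-voom, Eomes was 0.039 in place of −0.010, Sgpl1 0.030 in place of −0.019 and Zeb2 0.026 in place of −0.024. Under both, the median over all genes went from 0.0014 to 0.05. Why signs changed with a sample left out was not tested.

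The replicate block gave 2692 genes higher and 2851 lower, against 2576 and 2731 without it, and changed no call of a receptor. Deviations of same-numbered samples correlated at −0.024, 0.12 and 0.065 for numbers 1, 2 and 3, and sample 1 of WT correlated best with cKO sample 3, so the numbers were not taken to pair the samples.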
